A study of Mus musculus with 4 samples.

Results

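The Ifi200 family is a group of interferon-inducible mouse genes that lie side by side on chromosome 1. Of its genes 9 were followed by name, and all 9 were found among the 45232 genes of the files: Aim2, Ifi203, Ifi204, Ifi206, Ifi207, Ifi208, Ifi209, Ifi211 and Ifi213. They were chosen by name, with the difference in their counts between miR-99 KD and Scr already known, so that difference is given below as a description with no p-value of its own. Counts of members called are given beside the share of all genes called, and support nothing. The cells were leukemic granulocyte-macrophage progenitors (L-GMPs), the progenitor-like cells that maintain the leukemia, sorted from secondary recipient mice of a leukemia driven by the fusion oncoprotein MLL-AF9. When the mice died, cells positive for GFP and tdTom, and for c-Kit and Sca-1, with CD16/32+ and CD34+ as further gates, were sorted. Scr held 2 mice and miR-99 KD, named for a reduction of the microRNA miR-99, held 2 mice, with 1 library per mouse. All 4 libraries carry MLL-AF9. The abbreviations Scr and KD are not explained by the labels, which give no strain, age or sex, and do not say whether the recipients shared 1 primary leukemia, so the spread between the 2 libraries of a group may include differences between leukemias. In sorted bulk cells, fewer cells of a type and less RNA per cell cannot be told apart.

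Family proteins typically pair a pyrin domain, which binds other pyrin domains, with a HIN domain, which binds DNA. The best known is Aim2, which senses double-stranded DNA in the cytosol and gathers the adaptor Asc (gene Pycard) and caspase-1 into an inflammasome. The others are nuclear or cytosolic proteins linked to interferon responses, transcription and DNA sensing. Interferon signalling reaches such genes through Stat and Irf factors that bind an interferon-stimulated response element (ISRE), whose core is a pair of GAAA repeats set 2 bases apart.

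A pair of members stood far apart between the groups. Ifi213, a pyrin-domain gene also known as Pydc4, was among the 3 most abundant members in both Scr libraries and close to absent in miR-99 KD 2, whereas the adjacent member Ifi209, also known as Pyhin1, was higher in both miR-99 KD libraries. To show what the start regions of these genes hold, RefSeq windows from 250 bases before to 50 bases after the annotated start are printed on the gene's strand (GRCm38.p6). Capitals mark an ISRE core. The window of Ifi213 is chr1:173599223-173599522 (minus strand), that of Ifi209 is chr1:173630609-173630908 (plus strand) and that of Aim2 is chr1:173420354-173420653 (plus strand).
Ifi213: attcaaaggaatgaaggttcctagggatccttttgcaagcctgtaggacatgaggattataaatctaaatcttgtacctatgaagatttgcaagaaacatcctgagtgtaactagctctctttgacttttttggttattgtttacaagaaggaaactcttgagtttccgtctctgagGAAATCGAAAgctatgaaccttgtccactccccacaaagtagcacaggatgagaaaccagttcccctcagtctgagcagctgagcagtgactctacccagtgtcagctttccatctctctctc
Ifi209: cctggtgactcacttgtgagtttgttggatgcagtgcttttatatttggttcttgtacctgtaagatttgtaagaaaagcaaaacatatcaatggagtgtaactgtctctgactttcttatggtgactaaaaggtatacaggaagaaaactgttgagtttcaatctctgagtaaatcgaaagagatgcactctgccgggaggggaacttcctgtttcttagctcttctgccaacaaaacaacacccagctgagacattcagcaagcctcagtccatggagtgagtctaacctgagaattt
Aim2: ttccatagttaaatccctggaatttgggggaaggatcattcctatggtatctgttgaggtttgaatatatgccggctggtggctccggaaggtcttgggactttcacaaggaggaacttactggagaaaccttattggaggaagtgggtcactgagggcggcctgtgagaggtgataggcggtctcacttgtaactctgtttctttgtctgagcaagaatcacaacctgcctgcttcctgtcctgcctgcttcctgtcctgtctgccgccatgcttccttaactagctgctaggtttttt

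RefSeq start windows were found for 8 of the 9 members. GAAA followed after any 2 bases by GAAA, read on both strands, was present in 6 of these 8 members, against 3.44% of all 32851 start windows. The members without it were Ifi209 and Aim2. These shares differ in unit, since the 8 members have 9 windows: Ifi203 has 2, 1 of them without the core. The windows of Ifi206, Ifi208 and Ifi213 are near copies, so their matches are not separate occurrences. The Aim2 window lies inside its gene model, which begins at 173350879, and that of Ifi206 lies outside its model, which ends at 173491041. Starts other than the RefSeq ones were not searched. A second motif, TTCNNNGAA, the core of the gamma-activated site, was in 0 of the 9 windows of the members and in 8.3% of all windows. A match is a description of letters only, and binding was not measured.

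The stretches around the core are shown because related genes carry it in nearly the same surroundings, with 15 bases on each side. Ifi206 lies at chr1:173491334-173491373, Ifi213 at chr1:173599321-173599360, Ifi208 at chr1:173673592-173673631, Ifi207 at chr1:173741826-173741865, Ifi211 at chr1:173913059-173913098 and Ifi203 at chr1:173942503-173942542. Ifi208 is on the plus strand and the rest are on the minus strand. In Ifi209 the capitals mark the 10 bases, at chr1:173630765-173630804 on the plus strand, that align with the core of its close relative Ifi214, a family gene outside the 9. Counted from 1 at the first base of the Ifi214 core, the single difference there is G1T, the Ifi214 base first.
Ifi206: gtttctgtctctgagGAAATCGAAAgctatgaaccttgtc
Ifi213: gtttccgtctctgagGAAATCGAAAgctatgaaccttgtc
Ifi208: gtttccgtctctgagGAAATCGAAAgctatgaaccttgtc
Ifi207: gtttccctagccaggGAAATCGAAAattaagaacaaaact
Ifi211: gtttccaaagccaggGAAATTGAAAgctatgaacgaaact
Ifi203: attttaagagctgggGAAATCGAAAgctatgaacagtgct
Ifi209: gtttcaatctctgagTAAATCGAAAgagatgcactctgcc

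The start windows fell into sets of close copies. Ifi206, Ifi208 and Ifi213 were 98.5% to 98.9% identical over 267 to 285 aligned columns, so the start region of Ifi213 was nearly that of Ifi206 and Ifi208. Ifi209 was 95.7% identical to Ifi214 and 58.7% identical to Ifi213. Ifi207 and Ifi211 were 87.5% identical. Ifi203 was 94.3% identical to Mndal, a further family gene outside the 9.

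The levels are given as CPM, the count of a gene for each 1000000 gene counts of its library. Where 4 values follow each other they are in the order Scr 1, Scr 2, miR-99 KD 1, miR-99 KD 2. These totals ran from 38458519 to 42674407. Scr 1 stood apart from the other libraries: 28573 genes had a count in it, where the rest had 21372 to 24038, and the olfactory receptor genes, normally silent in blood, summed to 51.9 CPM in it against 4.78 to 14.95 CPM. Of the sort gate genes, Kit, Cd34 and Fcgr3 had at least 9882 counts in each library. Ly6a, which encodes Sca-1, had only 4, 8, 5 and 4 counts. The RNA thus does not bear out the Sca-1 positive gate stated above, and Sca-1 protein is not part of these data. With 2 libraries a group an exact permutation test cannot go below p = 0.333.

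**Figure D1:**
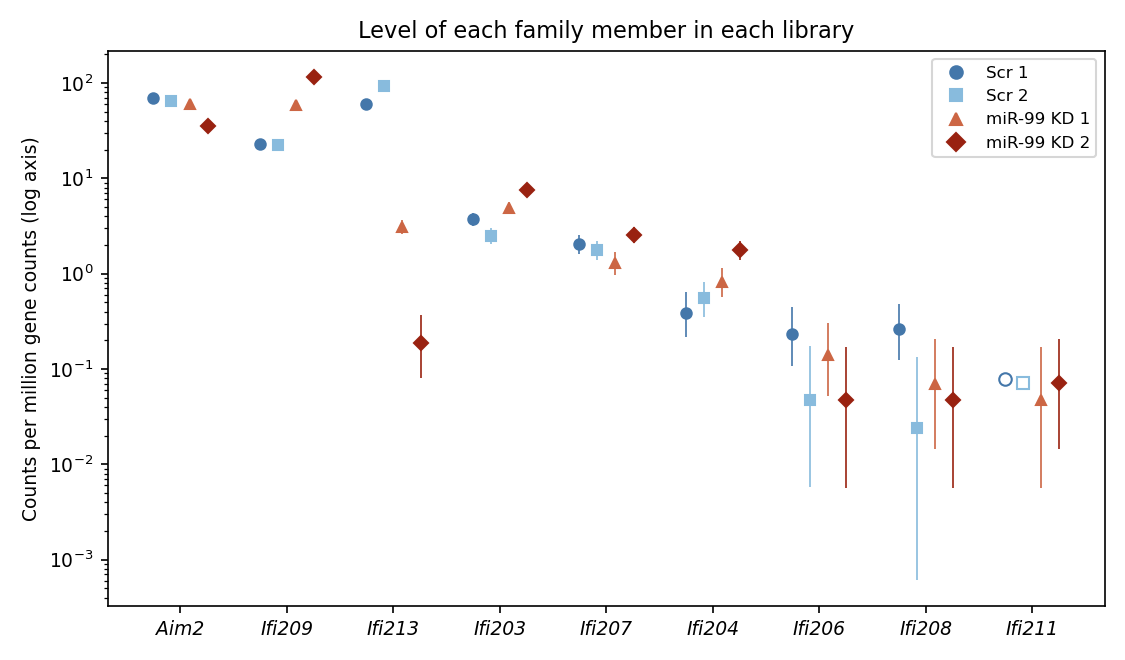
CPM (log axis) of the 9 members in each of the 4 libraries, with 95% Poisson intervals for counting error, and open symbols at the limit that 0 counts allow. Ifi213 runs from 93.6 CPM in Scr 2 down to 0.188 CPM in miR-99 KD 2, while Ifi209 runs from 22.6 to 115 CPM the other way.

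Ifi213 (ENSMUSG00000073491, chromosome 1, 173566283 to 173599274, minus strand) had 2321, 3919, 132 and 8 counts, or 60.4, 93.6, 3.09 and 0.188 CPM. The groups did not overlap, and the lower Scr library was 19.5-fold above the higher miR-99 KD library. The miR-99 KD libraries also stood 16.4-fold apart from each other, the widest gap within a group among the members with a count in each library. The Scr mean was 77.0 ± 23.5 CPM (SD, n = 2), and that of miR-99 KD was 1.64 ± 2.05 CPM, 46.9-fold lower, and the fitted log2 fold change was −5.50 ± 1.35 (SE). Without miR-99 KD 1 the fitted value was −8.58, without miR-99 KD 2 it was −4.55, and without Scr 1, the library that stood apart, it was −5.79. Of the 15591 genes fitted, 30 had a log2 fold change at least as large as Ifi213 in either direction, itself included.

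Ifi209 (ENSMUSG00000043263, chromosome 1, 173630917 to 173647928, plus strand) is the next member along the chromosome after Ifi213, in the opposite orientation. It had 873, 947, 2538 and 4904 counts, or 22.7, 22.6, 59.5 and 115 CPM. The Scr libraries were nearly equal and both lay below both miR-99 KD libraries, which differed from each other by 1.94-fold. The means were 22.7 ± 0.0582 and 87.4 ± 39.5 CPM (SD, n = 2), a ratio of 3.86, with a fitted log2 fold change of 1.99 ± 0.37 (SE). Without miR-99 KD 2 the fitted value was 1.49 and without Scr 1 it was 2.01.

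These members traded places as the more abundant of the pair. Scr 1 had 2.66 counts of Ifi213 per count of Ifi209 and Scr 2 had 4.14, whereas miR-99 KD 1 had 19.2 counts of Ifi209 per count of Ifi213 and miR-99 KD 2 had 613. Their summed levels were 83.05, 116, 62.6 and 115.5 CPM, so the groups overlapped in the sum. A ratio within a library does not depend on how the library was scaled.

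Aim2 (ENSMUSG00000037860, chromosome 1, 173350879 to 173466040, plus strand), the inflammasome sensor, was the steadiest of the abundant members. It had 2680, 2732, 2601 and 1517 counts, or 69.7, 65.3, 61.0 and 35.7 CPM. Scr 1, Scr 2 and miR-99 KD 1 lay close together and miR-99 KD 2 was the low one. The means were 67.5 ± 3.14 and 48.3 ± 17.9 CPM (SD, n = 2), with a fitted log2 fold change of −0.42 ± 0.32 (SE). Without miR-99 KD 2 it was −0.04 and without miR-99 KD 1 it was −0.82, so the size of the difference rested on that library.

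Together the 9 members held 159, 186, 131 and 163 CPM, and the groups overlapped. Aim2, Ifi209 and Ifi213 made up 95.8%, 97.4%, 94.4% and 92.6% of these counts. What differed was the make-up. Ifi213 held 37.9% of the members' counts in Scr 1 (exact binomial 95% interval 36.7% to 39.1%) and 50.2% in Scr 2 (49.1% to 51.3%), but 2.37% in miR-99 KD 1 (1.98% to 2.80%) and 0.115% in miR-99 KD 2 (0.0498% to 0.227%). Ifi209 went from 14.2% (13.4% to 15.1%) and 12.1% (11.4% to 12.9%) to 45.5% (44.2% to 46.8%) and 70.6% (69.6% to 71.7%). Aim2 held 43.7% (42.5% to 45.0%), 35.0% (34.0% to 36.1%), 46.6% (45.3% to 47.9%) and 21.9% (20.9% to 22.8%). These intervals cover counting error only, since amplified reads without molecular identifiers are not independent molecules.

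**Figure D2:**
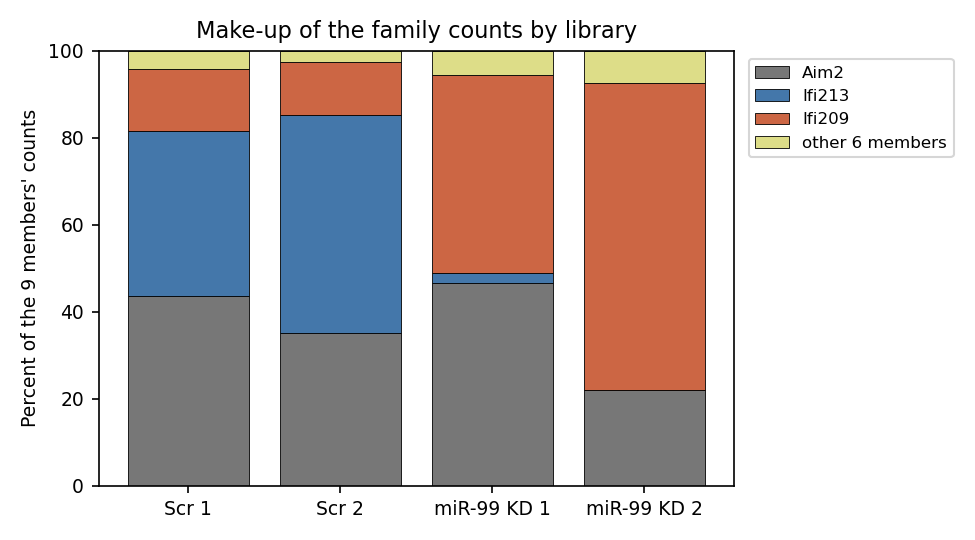
Percent of the counts of the 9 members taken by Aim2, Ifi213, Ifi209 and the other 6 members together, one bar for each library. From Scr 1 to miR-99 KD 2, Ifi213 takes 37.9%, 50.2%, 2.37% and 0.115%, and Ifi209 takes 14.2%, 12.1%, 45.5% and 70.6%.

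Per kilobase of annotated exon, a rough scale for comparing genes, the order of the levels changed between the groups. In both Scr libraries it was Aim2 (19.9 and 18.6 CPM per kilobase), Ifi213 (8.82 and 13.7) and Ifi209 (6.40 and 6.38). In miR-99 KD 1 Aim2 (17.4) and Ifi209 (16.8) were close, and in miR-99 KD 2 Ifi209 (32.5) was above Aim2 (10.2). The means per kilobase in miR-99 KD, 24.6 ± 11.1 for Ifi209 and 13.8 ± 5.11 for Aim2 (SD, n = 2), did not differ beyond their spread. All other members were below 1.2 CPM per kilobase in each library. The length joins the exons of all annotated transcripts, and only unique alignments were counted, so the length open to counting differs by gene. Before division by length, Ifi213 (93.6 CPM) stood above Aim2 (65.3 CPM) in Scr 2.

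Ifi203 and Ifi204, members with both a pyrin and a DNA-binding domain, had higher values in miR-99 KD from low levels. Ifi203 had 143, 105, 209 and 323 counts, or 3.72, 2.51, 4.90 and 7.60 CPM. Its groups did not overlap, with a fitted log2 fold change of 1.07 ± 0.34 (SE). Ifi204 had 15, 23, 35 and 75 counts, or 0.390, 0.549, 0.820 and 1.76 CPM. Its groups did not overlap either, and its fitted value of 1.49 ± 0.54 (SE) was 0.89 without miR-99 KD 2.

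Ifi207 lies next to Ifi204 and did not share its pattern. It had 78, 74, 55 and 108 counts, or 2.03, 1.77, 1.29 and 2.54 CPM. The miR-99 KD libraries lay on either side of the Scr libraries, and the fitted log2 fold change was 0.06 ± 0.41 (SE), turning to −0.45 without miR-99 KD 2 and to −0.01 with limma-voom.

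Ifi206, Ifi208 and Ifi211 were at or near the limit of detection and did not pass the filter on low counts. Ifi206 had 9, 2, 6 and 2 counts, and Ifi208 had 10, 1, 3 and 2. Each was highest in Scr 1, the library with the high olfactory receptor counts, and the part of that library's background in these values was not tested. Ifi211 had 0, 0, 2 and 3 counts, all at or under the 3 counts that a count of 0 allows, so no difference was detectable at this depth. The low counts of Ifi206 and Ifi208 stood beside start windows nearly identical to that of Ifi213. Both also share transcript sequence with other members, and only unique alignments were counted. Whether the start windows bear on these levels was not tested.

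**Figure D3:**
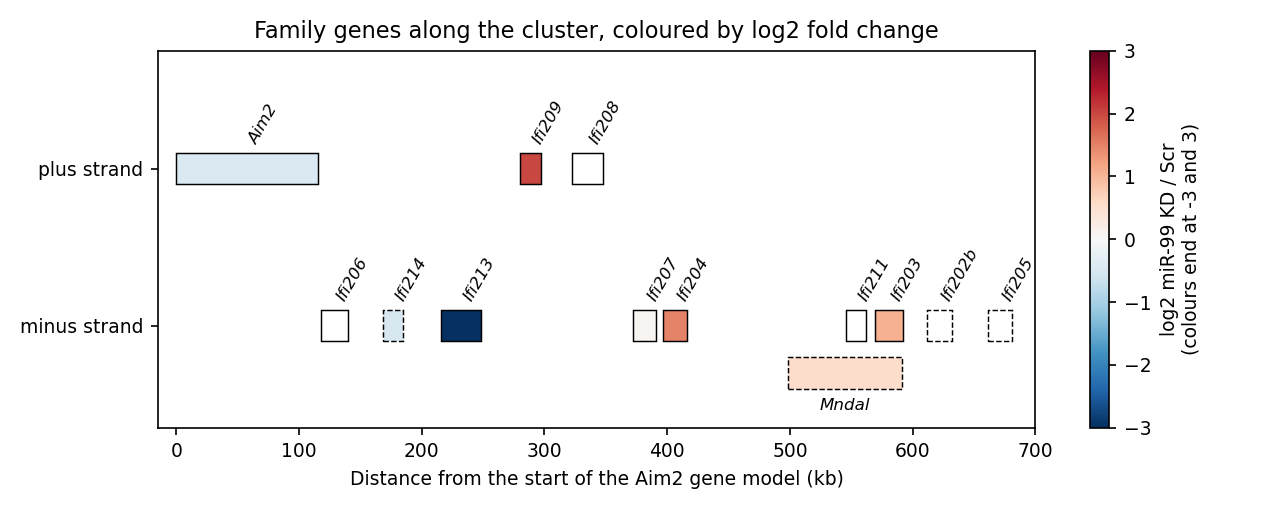
Gene models of the family along the cluster by strand, with distance from the start of the Aim2 model in kilobases, solid outlines for the 9 members, dashed outlines for other family genes and colour for the log2 fold change (white where not fitted, and one colour past the end of the scale, where Ifi213 lies). Ifi213 (−5.50) and Ifi209 (1.99) are adjacent members on opposite strands.

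Of the family genes outside the 9, only Mndal was above 1 CPM in any library. It had 15.81, 15.09, 15.02 and 28.9 CPM, with miR-99 KD 2 alone high and a fitted log2 fold change of 0.56, or 0.06 without that library and 1.0 without miR-99 KD 1. Ifi214 had 21, 0, 3 and 12 counts, highest in Scr 1, and the part of that library's background in them was not tested. Ifi202b and Ifi205 had at most 1 count in any library. Of 43 genes outside the family within 500 kb of the members, 0 reached a mean of 1 CPM.

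The family's copies resemble each other, and only unique alignments were counted, so how much of each transcript is shared bears on these values. Windows of 50 bases from a member's GENCODE M21 transcripts were looked up in the transcripts of all other genes, the read length being not given in the sources used here. Ifi209 shared 33.7% of its windows, nearly all with Ifi214 (33.4%), and 16.9% at 100 bases. Ifi213 shared 15.6%, mostly with Ifi208 (13.6%), and 3.30% at 100 bases. Aim2 shared 0.742% and then 0%. Ifi211 shared most, with 72.8% and 56.9%. The other members shared 7.29% (Ifi207) to 25.6% (Ifi206) at 50 bases. How many reads of such windows were set aside in these libraries was not tested. Exons of Ifi203 overlap those of Mndal by 37 bases on the same strand, and 0 exon bases of the other members overlap another gene's.

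Of the 9 members 6 passed the filter on low counts and were fitted. Their log2 fold changes were positive for 4 and negative for 2, and the median was 0.57, beside −0.01 over all 15591 genes. That median was 0.36 without miR-99 KD 2, 0.96 without miR-99 KD 1 and 0.03 under the stricter filter, which leaves out Ifi204. The groups did not overlap in CPM for 5 of the 6, where 41% of all genes fitted show this. With edgeR's quasi-likelihood test at an adjusted p below 0.05, 0 of the 6 were called, beside 0% of all genes. At an unadjusted p below 0.05 there were 4, Ifi203, Ifi204 and Ifi209 higher and Ifi213 lower, beside 7.89% of all genes, and DESeq2 called 2, Ifi209 higher and Ifi213 lower, beside 1.67%. As the members were chosen with this contrast known, nothing is read from these counts. Without Scr 1 edgeR called 294 of 15910 genes (1.85%), and Ifi209 and Ifi213 were among them, with the single Scr library assumed to vary like the miR-99 KD libraries. The 16.4-fold gap between the miR-99 KD libraries for Ifi213 and the 1.94-fold gap for Ifi209 stand beside them.

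**Figure D4:**
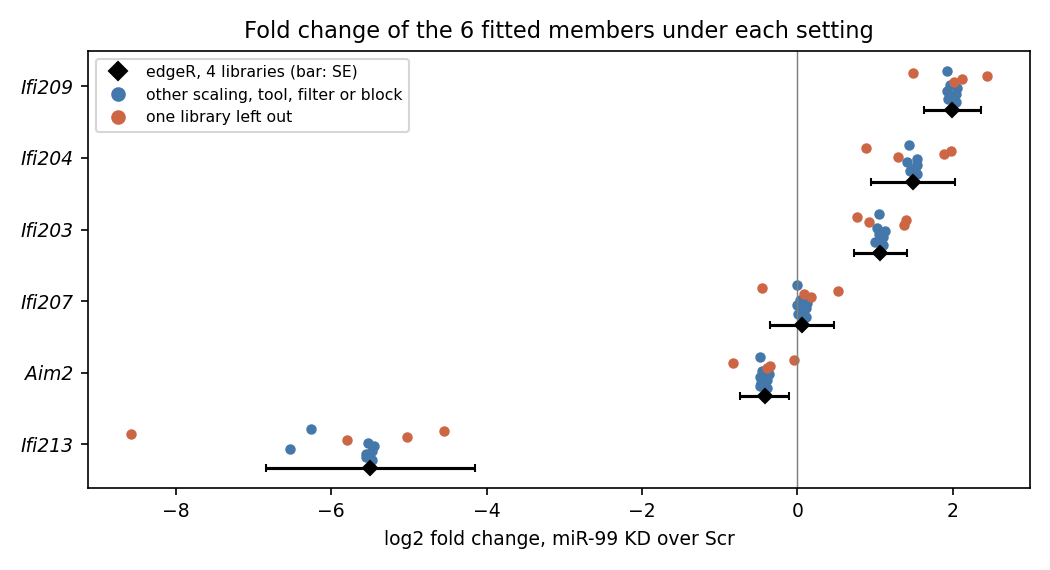
log2 fold change, miR-99 KD over Scr, of the 6 fitted members from edgeR with all libraries (diamonds, bars are SE) and under each alternative (dots). Ifi209 stays between 1.49 and 2.44 and Ifi213 between −8.58 and −4.55, while Ifi207 lies on both sides of 0.

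The 3 genes outside the family with the profile closest to the mean of the 6 fitted members, by Euclidean distance of centred log2 CPM over the 4 libraries, were 1700001L05Rik (distance 0.0392), Gm10143 (0.0514) and Hp1bp3 (0.0527). That mean is set mainly by Ifi213: its centred values were 0.13, 0.30, −0.12 and −0.31 from Scr 1 to miR-99 KD 2, against 2.81, 3.58, −1.31 and −5.08 for Ifi213 alone and −1.03, −0.89, 0.50 and 1.42 for Ifi209.

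The partners of Aim2 were expressed in all libraries. Pycard, the adaptor Asc, had 95.1, 82.6, 88.9 and 127 CPM. Casp1, the inflammasome protease, had 58.3, 52.2, 56.1 and 72.6 CPM, and Tmem173, which encodes the DNA-sensing adaptor Sting, had 57.5, 47.1, 42.0 and 61.5 CPM. For each of these 3 genes the groups overlapped. Gsdmd, the pore protein cut by caspase-1, and Casp8 were the most abundant of the list, with log2 fold changes of −0.04 ± 0.15 and 0.05 ± 0.15 (SE), the first of which changed sign under 3 alternatives. Tbk1, the kinase that acts below Sting, had 158, 141, 127 and 108 CPM (−0.29 ± 0.17, or −0.13 without miR-99 KD 2). Of 20 genes of DNA sensing and the inflammasome 16 were fitted, 8 positive and 8 negative, with a median of 0.01. edgeR and DESeq2 called 0, and at an unadjusted p below 0.05 edgeR had 0 higher and 1 lower, the inflammasome sensor Nlrp1b (23, 14, 5 and 7 counts, edgeR adjusted p 0.618).

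Genes that carry the interferon signal also centred near 0. Of 18 receptor and signalling genes all 18 were fitted, 10 positive and 8 negative, with a median log2 fold change of 0.03, and edgeR and DESeq2 called 0. Irf8, a factor of myeloid progenitors, had 217, 154, 284 and 446 CPM (1.04 ± 0.28 on the log2 scale, edgeR adjusted p 0.58) and was the single one at an unadjusted p below 0.05. Irf7, an interferon-induced activator of interferon genes, had 6.92, 6.76, 4.36 and 4.44 CPM (−0.58 ± 0.23, edgeR adjusted p 0.639). It lay lower in miR-99 KD with no overlap, opposite to Irf8. Spi1, the myeloid factor PU.1, had 363, 453, 404 and 450 CPM, and the interferon receptor gene Ifngr1 had 1148, 1080, 940 and 1215 CPM, with overlapping groups.

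Other interferon-stimulated genes went both ways. Of 28 genes 25 were fitted, 10 positive and 15 negative, with a median of −0.10. Oas2, a synthase of the antiviral RNA-degrading pathway, had 6.84, 6.76, 2.34 and 2.37 CPM (−1.47 ± 0.24), whereas Gbp3, a guanylate-binding protein gene, had 38.5, 40.6, 70.6 and 87.2 CPM (1.04 ± 0.20). The interferon-induced GTPase gene Ifi47, the other abundant one, had 48.7, 46.0, 58.0 and 79.8 CPM. edgeR called 0, with 3 higher and 2 lower at an unadjusted p below 0.05 (adjusted p 0.421 for Oas2 and 0.466 for Gbp3 in edgeR), and DESeq2 called Gbp3 higher and Oas2 lower. The interferon genes themselves were near 0: their 7 genes summed to 0.572 CPM in Scr 1 and at most 0.118 CPM in the other libraries. In Scr 1 Ifnb1 had 10 and Ifna2 had 9 counts. That library had the high olfactory receptor counts, and the part of its background in these values was not tested.

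**Figure D5:**
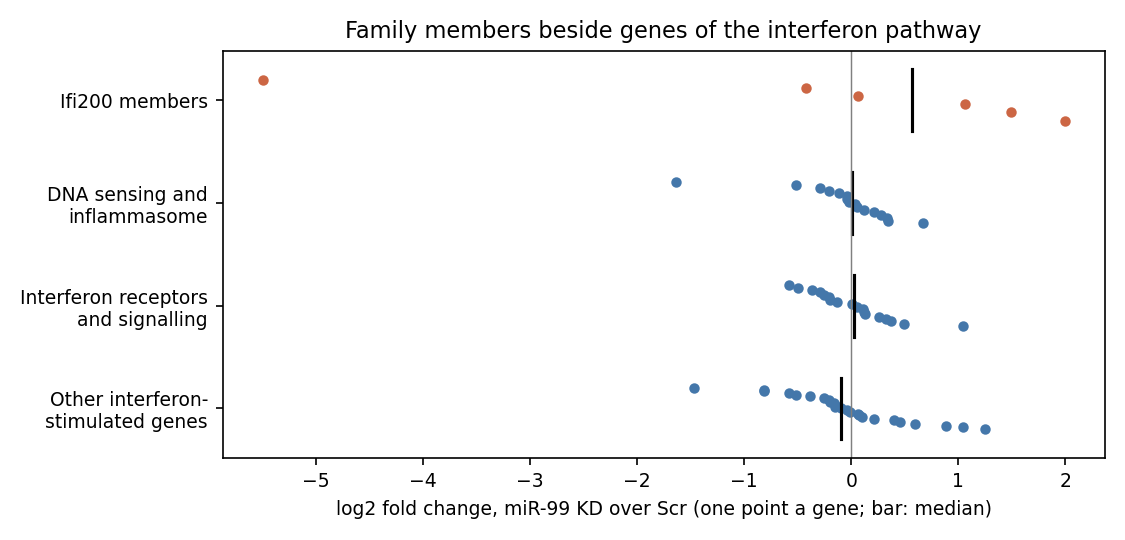
log2 fold change, miR-99 KD over Scr, of each fitted gene of the Ifi200 members and of 3 lists of the interferon and DNA-sensing pathway, 1 point a gene with a bar at the median. The members run from −5.50 to 1.99 with a median of 0.57, which is 0.03 under the stricter filter, and the list medians are 0.01, 0.03 and −0.10.

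Among marker lists of other blood cells, the granulocyte list had the largest median log2 fold change, 3.41. The 8 granulocyte markers, among them Ltf, Ngp and S100a8, summed to 1095, 342.5, 3240 and 10340 CPM, and 8 of 8 had a positive log2 fold change, with 0 called by edgeR and 6 by DESeq2. The sum was lowest in Scr 2 and highest in miR-99 KD 2, the libraries in which Ifi213 was highest and lowest. Kit, a gene of the sort gate, had lower values in miR-99 KD, with 453, 424, 298 and 232 CPM and no overlap between the groups (−0.67 ± 0.19, edgeR adjusted p 0.58). The 8 monocyte and macrophage markers summed to 1997, 1861, 2273 and 3573 CPM, mostly Ly6c2 (1378, 1356, 1521 and 2710 CPM), but 4 of the 8 were above 0 on the log2 fold change scale and 4 below, around a median of 0.08. Of those lower in miR-99 KD, Vcan had 10.9, 8.41, 2.41 and 2.00 CPM. Plasmacytoid dendritic cell markers summed to 254.5, 181.1, 334.7 and 501.6 CPM, mostly Irf8. Of these 5 genes 3 had a positive log2 fold change, Tcf4 (3.34), Irf8 (1.04) and Siglech (0.49). Bst2 (−0.25) and Ccr9 (−1.33) had a negative one. Tcf4 had 3.82, 2.22, 20 and 38.6 CPM and was the 1 gene of this list called by DESeq2, with 0 called by edgeR. The defining Siglech had 14, 0, 17 and 3 counts. The defining T cell gene Cd3e had at most 4 counts in any library, and the B cell gene Pax5 had 3, 0, 0 and 0. B cell markers summed to 61.2 to 88.9 CPM, mostly Cd79b, and T and NK cell markers to 114 to 166.5 CPM, mostly Nkg7, with overlapping groups. Of the 3 T and NK cell markers fitted, 1 was positive and 2 were negative. DESeq2 called Klrb1c lower (50, 60, 11 and 10 counts), and edgeR called 0. Erythroid markers summed to 44.2 to 110 CPM, mostly the globin genes Hbb-bs and Hba-a1, with overlapping groups. Of the 6 fitted, 2 were positive and 4 negative, around a median of −0.45, and edgeR and DESeq2 called 0. Klf1 (−0.59) and Car1 (−2.39, with 19, 23, 3 and 5 counts) were lower in miR-99 KD with no overlap. Stromal and endothelial markers summed to 606, 544.5, 351.5 and 275.1 CPM, mostly Vcam1, with no overlap between the groups. Of the 5 fitted, 4 were negative and 1 was positive. The positive one was the endothelial gene Pecam1 (0.34), with 123, 111, 149 and 135 CPM. DESeq2 called Vcam1 lower (−1.36), and edgeR called 0. The endothelial gene Cdh5 had 2, 1, 0 and 0 counts. The part of other or more mature cells in the members' values was not tested.

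The microRNAs of the miR-99 family are shown because their seed largely sets which transcripts they pair with. Their mature levels were not measured in these libraries. The 5p arms of miR-99a, miR-99b and miR-100 share 1 seed (bases 2 to 8, in capitals), as listed in RefSeq.
mmu-miR-99a-5p: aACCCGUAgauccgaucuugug
mmu-miR-99b-5p: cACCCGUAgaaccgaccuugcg
mmu-miR-100-5p: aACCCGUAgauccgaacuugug

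A match to this seed, TACGGGT, was in 0 of the 9 members, searched along the whole length of their 33 GENCODE M21 transcripts. It was in a transcript of 4.32% of the 15519 fitted genes with transcripts. At such a share, 0 of 9 genes does not set the members apart. The shorter match, ACGGGTA, was in 0 of the 9 members as well, with 7.66% of genes holding either one. No match says only that these letters are not in these transcripts.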

How the data were processed

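Per the labels, RNA of sorted cells was amplified with SMARTer chemistry and sequenced. The deposited values are whole-number counts per Ensembl gene, 1 table for each library. The submitters' processing notes name STAR, Picard, HTSeq, DESeq2 and mm9, without versions, and no source used here gives the annotation release, strand setting or read layout. Rows naming no gene held 43.69% to 49.75% of all entries and were left out. The members and all lists were chosen with earlier results of these data known. Symbols and GRCm38 coordinates were matched by identifier for 44585 of 45232 genes.

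Genes passing edgeR's filter (minimum count 10) were normalized by TMM and fitted by its quasi-likelihood test (edgeR 4.0.16, adjusted by the Benjamini-Hochberg method, threshold 0.05), with 2 residual degrees of freedom. DESeq2 1.42.0, limma 3.58.1 (voom), other scalings, other filters, a replicate block and each library left out were alternatives. Each SE given is the size of the edgeR log2 fold change divided by the square root of its F statistic. It therefore restates that test and is not a separate estimate of spread. The scripts were tested on simulated data. From each list the text names the 2 genes of highest mean, the 2 of smallest p and Pycard, Casp1, Tmem173, Irf7, Irf8 and Spi1; 1 gene that this rule selects is not reported here.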

Additional observations from a re-analysis of the deposited data

How the results depend on the processing

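The count of genes called at an adjusted p below 0.05 by edgeR, 0 of 15591 with 1230 at an unadjusted p below 0.05, was 9 with library totals alone, 23 with upper-quartile factors, 9 with no filter on low counts and 261 with DESeq2. It ran from 0 to 294 with 1 library left out, 294 being without Scr replicate 1. With limma-voom, DESeq2's size factors and the stricter filter it was 0. Of the members 2 were called by DESeq2, Ifi209 and Ifi213, beside 1.67% of all genes. The cause of these changes was not tested. Whether the replicate numbers in the labels pair the samples is not known. Over genes, the deviations of Scr 1 and miR-99 KD 1 from their group means correlated at −0.428. With 2 libraries a group this is 1 contrast only, so it cannot decide the pairing. With a replicate block 0 genes were called, with 650 at an unadjusted p below 0.05, and the log2 fold changes of Ifi207 and Ifngr1 were −0.01 each.

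Of 262 alternative values of 22 single genes, 240 kept their direction and side of the threshold, 6 newly passed it and 16, of 6 genes, changed sign. Ifi207 was −0.01 with limma-voom and −0.45 to 0.52 with 1 library left out. Tmem173 was −0.02 and Casp8 was 0 with library totals alone, and Tmem173 was −0.21 to 0.34 with 1 library left out. Gsdmd was 0.02 with no filter and −0.07 to 0.12 with 1 library left out. Ifngr1 was −0.05 with library totals, −0.01 with upper-quartile factors and limma-voom, −0.03 with the stricter filter and −0.14 to 0.22 with 1 library left out. Spi1 was −0.03 to 0.41 with 1 library left out. Ifi204 had no value under the stricter filter. With 2 mice a group, p-values rest on these libraries only and on variation estimated jointly over genes. Members under 3 counts are below what this depth resolves.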
